A study of Mus musculus with 12 samples.

Results

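The comparison described here is the induction of Hey2 in a mouse embryonic stem cell culture labelled as cardiomyocytes, measured by RNA sequencing in 1 induced and 1 uninduced library of the Hey2 line. Markers of pluripotent cells stood beside those of heart muscle in both libraries, at levels given below, so the culture is called the Hey2-line culture here rather than cardiomyocytes. Genes were compared where both Hey2-line libraries had a deposited value and the mean of both was at least 1 RPKM, the number of reads divided by gene length and library depth, whether or not the same gene was listed in the Hey1 line. This gave 11949 of the 23427 genes in the table. Prdm14 and Tex15, both at a mean of 1.00 RPKM after rounding, lay just inside and just outside this limit. The induced library came from cells given doxycycline at 1000 ng/ml for 48 h, and the uninduced library is its control. Both came from CM7/1, a mouse embryonic stem cell line put through cardiomyocyte differentiation, and the labels name no further allele or agent. A second line carries Hey1 and was sampled in the same way, with 1 library a side. No library of doxycycline-treated cells without a Hey gene is among the samples, so a response to the drug and a response to Hey2 cannot be told apart. The sources used here do not say whether the Hey2 line is 1 clone. With 1 library on each side there is no replicate, so no test between the conditions was possible, and "higher" or "lower" below compares those libraries.

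Hey2 is a basic helix-loop-helix protein with an Orange domain, and it represses transcription downstream of Notch receptors. In the embryonic heart it is known for its place in the ventricular compact myocardium and for limiting atrial genes there. Hey proteins bind DNA as dimers and recruit corepressors, so a direct target is usually looked for among genes that go down.

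The induction itself was visible in the reads. Hey2 was blank in the uninduced library, where the steps in the deposited values place the lowest listed level at 5 reads, or 0.343 RPKM for a gene of this length. In the induced library Hey2 stood at 6.59 RPKM (5.64 to 7.64, from 173 reads), at least 19.2-fold higher. The Hey1-line libraries held Hey2 at 0.694 RPKM uninduced and 0.895 RPKM induced. Hey1, the family member most like it, was listed at 1.18 RPKM in the uninduced and 0.481 RPKM in the induced Hey2-line library, from 15 and 11 reads. Intervals in parentheses here and below are exact 95% intervals from the reads recovered from the RPKM values, and they cover counting error but not the spread between cultures.

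The cells labelled cardiomyocytes carried both cardiac and undifferentiated RNA. All 11 cardiomyocyte markers (among them Actc1, Myh6, Tnnt2 and Ttn) were listed, with a summed level of 1184 RPKM uninduced and 1225 RPKM induced, against 20182 and 20952 RPKM in the Hey1 line. All 8 pluripotency markers were listed too, with sums of 356 and 378 RPKM, against 39.1 and 30.3 RPKM in the Hey1 line. Epithelial markers summed to 318 and 384 RPKM, smooth muscle markers to 138 and 171 RPKM, and fibroblast markers to 64.3 and 81.4 RPKM. Primitive streak markers summed to 33.0 and 22.3 RPKM, endoderm markers to 12 and 10.9 RPKM, endothelial markers to 6.86 and 7.39 RPKM, neural markers to 4.81 and 4.54 RPKM, and epicardial markers to 1.35 and 2.29 RPKM. The 4 blood markers (Gata1, Hba-x, Hbb-bh1 and Ptprc) were blank in both libraries. In bulk RNA such as this, fewer cells of a type and less RNA per cell cannot be told apart, and the part that these differences in marker sums have in the gene differences below was not tested. The recovered reads in listed genes numbered 2298677 in the uninduced and 4187429 in the induced library.

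Most genes differed little. On the scale of log2(RPKM + 1), which understates the change of genes at low levels, the median difference (induced minus uninduced) was -0.0047, with 5852 genes higher and 6093 lower, and 77.7% of genes lay within 0.25 of 0. At 1.5-fold on that scale 93 genes were higher, or 0.778% of the genes compared, and 130 were lower, or 1.09%. At 2-fold, 3 genes were higher (0.0251%) and 11 were lower (0.0921%). Counts of genes past 1.5-fold or 2-fold here and below are on that scale, whereas the fold or ratio given for a single gene is the plain ratio of its RPKM values, which is larger for genes at low levels. With a trend along gene length removed, described further below, the split at 1.5-fold turned to 114 higher and 93 lower. The counting interval of the ratio lay wholly on one side of 1 for 76 of the 93 higher and for 100 of the 130 lower genes.

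**Figure D1:**
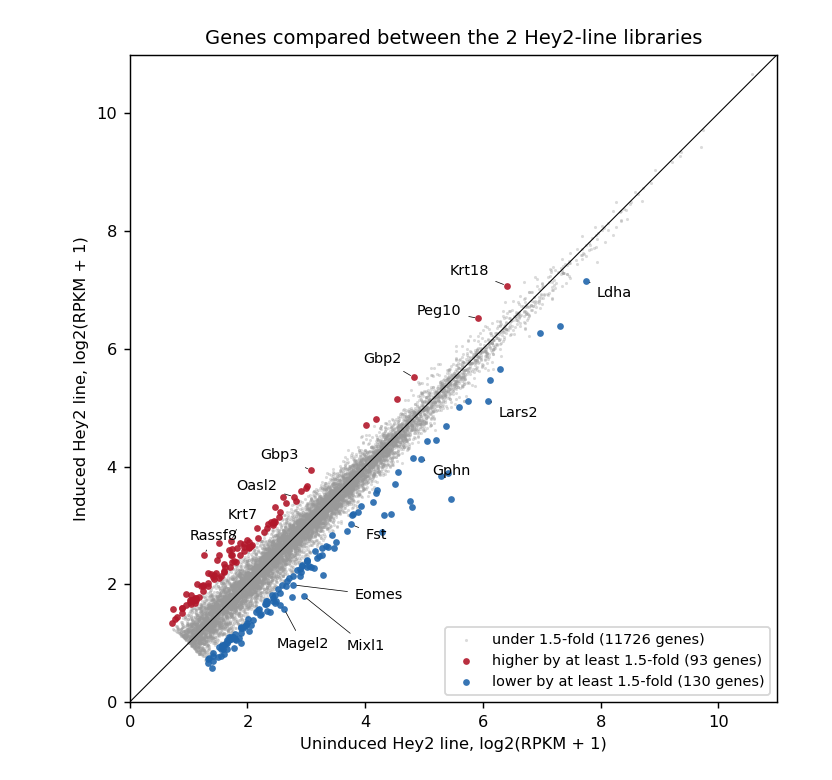
Level of each compared gene in the uninduced (x axis) and induced (y axis) Hey2-line library, both as log2(RPKM + 1), with 1 point per gene and the line of equal levels. Red points are the 93 genes higher and blue points the 130 genes lower by at least 1.5-fold; Krt18 and Gbp2 stand out above the line at high levels, and Ldha and Lars2 below it.

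Genes of the primitive streak, the embryonic region where cells leave the epiblast to form mesoderm and endoderm, were mostly lower after induction. Of 27 listed as streak and mesendoderm genes, 16 could be compared, of which 13 were lower and 3 higher, with 5 lower by at least 1.5-fold and none higher. Their median difference was -0.38, against -0.0047 over all genes. The homeobox factor Mixl1 went from 6.76 to 2.48 RPKM and was 2.72-fold lower (1.94 to 3.85). Eomes, the T-box factor of early mesendoderm, went from 5.86 to 2.97 RPKM and was 1.97-fold lower (1.59 to 2.45). Fst, which encodes the activin-binding protein follistatin, was at 12.6 RPKM uninduced and 7.09 RPKM induced. Wnt8a, a streak Wnt ligand, went from 7.21 to 3.93 RPKM. Lhx1, a LIM-homeobox factor, completed the 5 with 4.74 and 2.80 RPKM on 15 and 16 reads, although its interval for the ratio reached from 0.274 to 1.28. Wnt3, the ligand needed to start the streak, went from 2.62 to 1.64 RPKM, short of 1.5-fold on the log2(RPKM + 1) scale. The founding streak gene T (brachyury) differed less, at 17.6 RPKM uninduced and 14.2 RPKM induced, a ratio of 0.809 (0.675 to 0.970). The 3 higher members were Fgf17, Axin2 and Pdgfra, and all 3 intervals included 1.

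The list is low or unlisted in the Hey1 line. Mixl1 was listed there at 4.37 RPKM uninduced and 2.80 RPKM induced, also lower, while Eomes, Fst, Wnt8a, Wnt3, Sp5 and T were blank in both Hey1-line libraries. Of the streak list, 4 compared genes had values in all 4 libraries, and their median difference in the Hey2 line was -0.13. Among the members under the limit of level, 7 were blank in both Hey2-line libraries, including Wnt3a, Msgn1 and the Cdx genes. Tbx6 and Evx1 were listed in both but below the mean of 1 RPKM, and Mesp1 and Mesp2, factors of nascent mesoderm, were listed in the induced library alone at 0.447 and 0.299 RPKM.

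Genes of the primed epiblast and general pluripotency moved in the same direction, but less. Of the 25 compared, 17 were lower and 8 higher, 3 were lower by at least 1.5-fold, and the median difference was -0.14. Those 3 were Cer1, which encodes a secreted inhibitor of Nodal, BMP and Wnt (4.89 to 2.60 RPKM), the forkhead factor Foxd3 (2.78 to 1.38 RPKM) and Fgf15 (4.33 to 2.51 RPKM). Pou5f1, the Oct4 gene and the most abundant of the list, went from 98.1 to 82.8 RPKM, a ratio of 0.844 (0.772 to 0.923). Fgf5 and Otx2, markers of the primed state, were at 34.7 and 27.6 RPKM uninduced and at 28.0 and 22.7 RPKM induced. Sox2 differed by 0.10 in the other direction, from 36.8 to 39.4 RPKM. Nodal, the ligand that patterns the epiblast, stood at 9.63 and 9.76 RPKM, while its antagonists split, with Lefty1 lower (14.1 to 12.1 RPKM) and Lefty2 higher (21.5 to 25.9 RPKM). Dnmt3b, the de novo DNA methyltransferase of the epiblast, went from 71.4 to 49.4 RPKM, a ratio of 0.691 (0.650 to 0.736), whereas Dnmt3a went from 9.14 to 8.65 RPKM. Dnmt3b is not among the 25 but on a separate DNA methylation list. Of the 13 genes compared there, 9 were higher and 4 lower, with a median of 0.10. On that list 2 intervals lay wholly below 1 and 0 wholly above.

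Naive pluripotency genes, which mark the state of the preimplantation epiblast, were higher. Of 20 compared, 17 were higher and 3 lower, with a median difference of 0.19, and 7 had an interval wholly above 1 and none wholly below. The nuclear receptor gene Esrrb went from 5.80 to 9.18 RPKM, 1.58-fold (1.32 to 1.92), and Tcfcp2l1 (Tfcp2l1) from 2.04 to 3.54 RPKM, 1.73-fold (1.39 to 2.17). The Krüppel-like factors were higher as well, with Klf5 at 6.25 and 9.67 RPKM, Klf2 at 9.0 and 12.2 RPKM and Klf4 at 2.57 and 3.45 RPKM. Nanog went from 37.3 to 45.9 RPKM and Dppa5 (Dppa5a) from 52.8 to 70.1 RPKM. Nr0b1 was the single member past 1.5-fold on the log2(RPKM + 1) scale, from 1.16 to 2.31 RPKM on 12 and 43 reads, while Esrrb, Tcfcp2l1 and Klf5 passed it as plain ratios alone. Prdm14, Tcl1 and Dppa4 were the 3 lower members, and each had an interval that included 1. In the Hey1 line 14 members had both values, 12 of them lower and 2 higher, where 62.0% of all genes with both values were lower, with a median of -0.18 and levels far below those of the Hey2 line (Nanog 2.79 and 2.16 RPKM). Whether the Hey1-line and Hey2-line differences differ from each other could not be tested with 1 library a side.

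**Figure D2:**
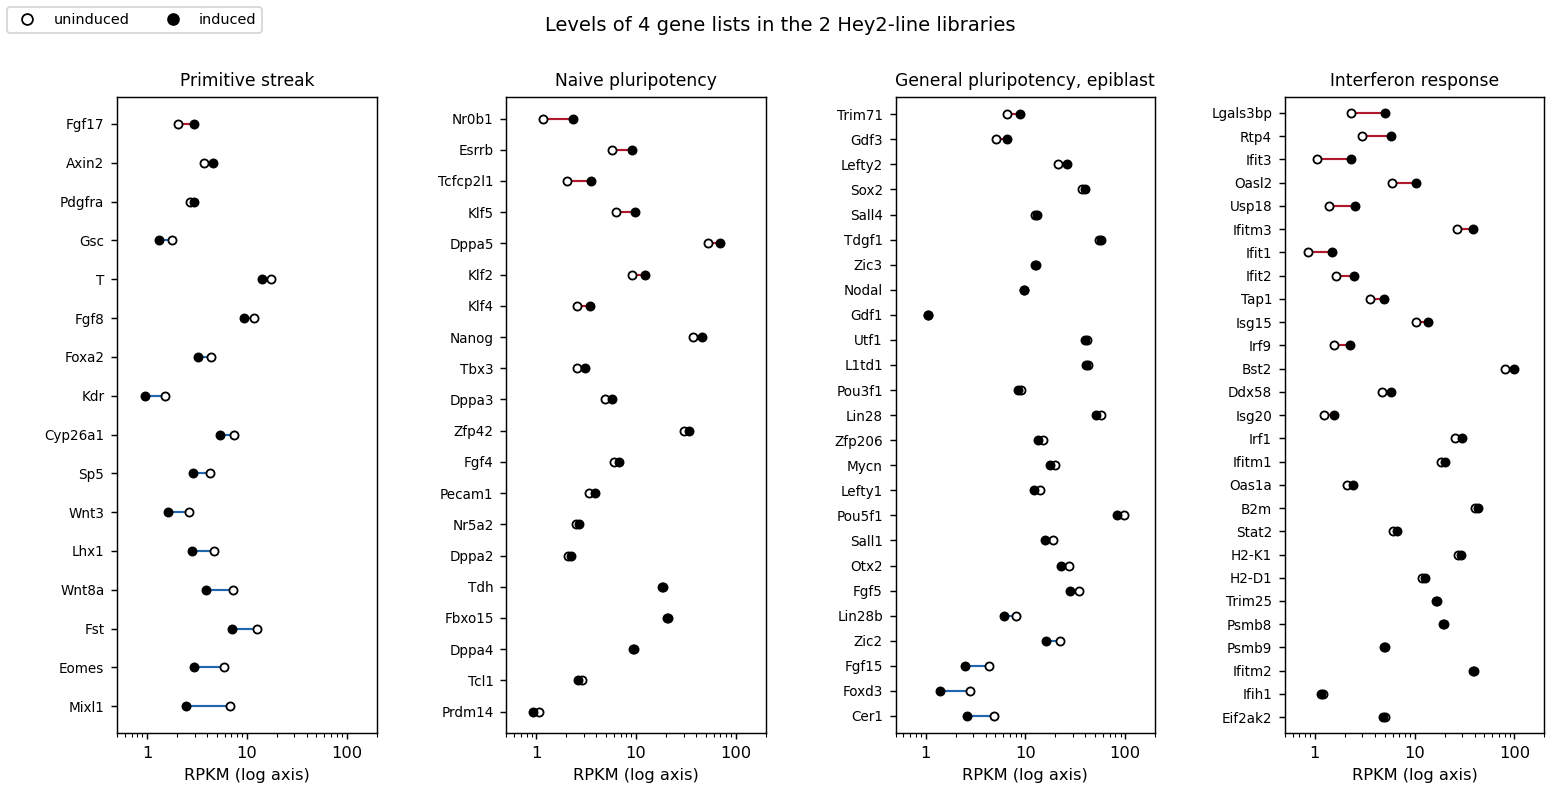
RPKM (log axis) of each compared member of 4 gene lists in the uninduced (open circles) and induced (filled circles) Hey2-line library, with a red connecting line where the induced value is higher and blue where it is lower. In the streak panel 13 of 16 members lie lower after induction, while in the naive panel 17 of 20 and in the interferon panel 24 of the 27 drawn lie higher.

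A further group that stood higher was made of interferon-stimulated genes. These genes answer to interferons through transcription factors that bind an interferon-stimulated response element in their promoters. To show that element, the promoters of Ifit3, which is on the interferon list, and of Gbp2 and Gbp3, interferon-induced genes outside it, follow, each running from 250 bases before to 50 bases after the RefSeq start on GRCm38.p6, with every match in capitals. A match is GAAA, any 2 bases and GAAA again on either strand, and on the reverse strand it reads TTTC, 2 bases and TTTC. Gbp3 lies at chr3:142559794-142560093 on the plus strand, Gbp2 at chr3:142620413-142620712 on the plus strand, and Ifit3 at chr19:34583279-34583578 on the plus strand.
Gbp3: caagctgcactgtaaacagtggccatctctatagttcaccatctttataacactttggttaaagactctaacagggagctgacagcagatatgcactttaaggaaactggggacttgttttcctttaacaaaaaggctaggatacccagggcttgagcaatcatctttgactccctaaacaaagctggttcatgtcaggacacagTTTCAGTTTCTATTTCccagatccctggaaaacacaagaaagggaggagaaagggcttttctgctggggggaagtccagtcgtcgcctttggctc
Gbp2: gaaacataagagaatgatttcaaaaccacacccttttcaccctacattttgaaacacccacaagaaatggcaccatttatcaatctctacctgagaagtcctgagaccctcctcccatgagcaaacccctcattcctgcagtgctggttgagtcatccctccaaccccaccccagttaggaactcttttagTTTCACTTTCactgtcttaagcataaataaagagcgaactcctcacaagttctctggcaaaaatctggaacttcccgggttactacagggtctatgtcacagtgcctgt
Ifit3: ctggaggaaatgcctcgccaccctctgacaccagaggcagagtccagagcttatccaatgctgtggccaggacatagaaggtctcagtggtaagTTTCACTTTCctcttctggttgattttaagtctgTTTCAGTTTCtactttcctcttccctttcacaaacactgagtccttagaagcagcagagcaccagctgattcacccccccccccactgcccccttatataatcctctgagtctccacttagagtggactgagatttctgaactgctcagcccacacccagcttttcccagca
In Gbp3 the capitals hold 2 overlapping matches, in Gbp2 they hold 1, and in Ifit3 they hold 2 separate matches. RefSeq gives a second start for Gbp3 whose promoter holds none. These promoters were chosen after their matches were seen, and the promoter of Oasl2, a list gene with a higher level described next, holds no match.

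Of 32 genes on the interferon list, 28 could be compared, of which 25 were higher and 3 lower, with 4 past 1.5-fold upward and none downward. The median difference was 0.20. Oasl2, an oligoadenylate synthetase-like gene, went from 5.93 to 10.2 RPKM, 1.72-fold (1.38 to 2.16). Lgals3bp, which encodes a secreted galectin-binding protein, went from 2.33 to 5.07 RPKM, and Rtp4 from 2.99 to 5.76 RPKM. Ifit3 was at 1.04 and 2.32 RPKM on 6 and 24 reads, so its interval of 0.883 to 6.63 included 1. Ifitm3, which restricts virus entry, went from 26.3 to 38.2 RPKM, and Bst2 (tetherin) from 80.1 to 99 RPKM. Among signalling components Stat2 was at 6.13 and 6.67 RPKM and Irf1 at 25.7 and 29.7 RPKM. Of the list, 16 genes had both Hey1-line values, of which 14 were lower and 2 higher there, with a median of -0.24. Over all compared genes with both Hey1-line values, 62.0% were lower there, with a median of -0.06.

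The guanylate-binding proteins, interferon-induced GTPases, were looked at as a family after their values were seen. Of the 7 compared, 5 were higher and 2 lower. Gbp3 went from 7.45 to 14.3 RPKM, 1.92-fold (1.56 to 2.39). Gbp2 went from 27.3 to 44.8 RPKM, 1.64-fold (1.46 to 1.84), and Gbp1 (Gbp2b in RefSeq) from 28.9 to 42.5 RPKM, 1.47-fold (1.32 to 1.64). The gene deposited as Gbp6 (Gbp7 in RefSeq) went from 3.06 to 5.18 RPKM, whereas Gbp4 stayed at 1.55 and 1.52 RPKM. These genes resemble each other in sequence, and the sources used here do not say how reads with several matches were counted, so the share of each is uncertain. The related immunity GTPases differed less, with Igtp at 11 and 11.1 RPKM and Irgm (Irgm1) at 18.7 and 19.6 RPKM. Cxcl10, an interferon-induced chemokine also chosen after its values were seen, was at 5.06 and 10.2 RPKM on 8 and 29 reads.

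Promoter matches were counted over genes with a RefSeq promoter, 1 promoter a gene. The response element as spelled out above was present in 12 of 25 interferon-list promoters, in 8 of the 73 genes higher by at least 1.5-fold (11%) and in 2 of the 92 lower genes. The share was 2.65% among all compared genes and 3.49% among all 27025 promoters. The higher genes include Gbp2, Gbp3 and the list gene Ifit3, whose matches were shown above. Genes on the interferon list are known to answer through this element, so these shares are not independent support. The E-box CACGTG, to which Hey proteins can bind, was present in 4 of the 73 higher and 12 of the 92 lower promoters (5.48% and 13%), against 10.7% of compared genes. The variant CACGCG was present in 15.1% of higher and 15.2% of lower promoters, against 18.4% of compared genes. The brachyury half-site TCACACCT was found in none of the higher or lower promoters, against 0.720% of compared genes.

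Several keratin and desmosome genes, whose products give epithelial cells their filaments and anchor them to each other, were higher. On the list of 32 keratin and junction genes, all of which could be compared, 21 were higher and 11 lower, with a median difference of 0.06, 3 past 1.5-fold upward and 1 downward. The 18 members with values in all 4 libraries had a median of 0.33. Rassf8, which encodes a Ras-association domain protein of adherens junctions, had the highest log2 difference of all compared genes, 1.24, from 1.4 to 4.67 RPKM on 14 and 84 reads. In the Hey1 line Rassf8 was higher to begin with, at 13.3 RPKM uninduced and 15 RPKM induced. Krt7, a keratin of simple epithelia and trophoblast, went from 2.30 to 5.65 RPKM, 2.45-fold (1.52 to 4.15). Krt18 went from 84.0 to 134 RPKM, 1.59-fold (1.46 to 1.74), and its partner Krt8 from 52.8 to 69.0 RPKM, 1.31-fold (1.18 to 1.45). Krt19 was at 49.1 and 65.1 RPKM. Among 12 keratin genes taken as a family after their values were seen, 5 could be compared and were higher, Krt17 among them on 7 and 21 reads. Krt10, under the limit of level, went the other way, from 1.25 to 0.645 RPKM on 15 and 14 reads, with an interval that included 1, and Krt1, Krt5, Krt6a and Krt15 were blank in both Hey2-line libraries.

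Of 11 desmosome genes, a family also chosen after its values were seen, 6 could be compared, 5 of them higher and 1 lower. Dsp (desmoplakin) went from 12.1 to 18.4 RPKM, 1.52-fold (1.39 to 1.67), and Jup (plakoglobin) from 11.6 to 16.9 RPKM, 1.46-fold (1.28 to 1.66). The desmosomal cadherin Dsg2 was at 6.62 and 9.49 RPKM and Dsc2 at 2.52 and 3.86 RPKM. The plakophilin gene Pkp2 was at 20.8 and 24.6 RPKM, and Pkp3, the 1 compared desmosome gene with a lower level, at 1.61 and 1.43 RPKM. The classical cadherin gene Cdh1 did not share this, at 92.1 and 92.2 RPKM. Rab25, a small GTPase of epithelial recycling, was lower, from 4.59 to 2.27 RPKM, and Cldn7, Ocln and Crb3 had ratios under 1 with intervals that included 1. Dsp, Jup, Dsg2 and Dsc2 are expressed in cardiomyocytes as well, so the level of these genes does not mark epithelial cells alone.

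Tgm1, the transglutaminase of the cornified envelope, was blank in both Hey1-line libraries and went from 1.06 to 2.54 RPKM in the Hey2 line. The rows Sprr2a and Sprr2a2 held the same values, 0.858 and 2.04 RPKM, and are near-identical copies, so they count as 1 uncertain measurement. On the trophoblast list 8 of 9 compared genes were higher and 1 lower, with a median of 0.28, but only 2 had an interval wholly above 1 and 0 wholly below. Its most abundant gene, the imprinted retrotransposon-derived Peg10, went from 59.7 to 90.7 RPKM, 1.52-fold (1.42 to 1.63), on 1144 and 3135 reads. Krt7, counted above, is on that list too, and Hand1 was at 3.30 and 4.98 RPKM with an interval that included 1. On the epicardial list 5 of 12 genes could be compared and all 5 were higher, but 3 of them are Krt8, Krt18 and Krt19. Msln (mesothelin) was at 1.07 and 2.19 RPKM, and Wt1, the defining epicardial factor, at 1.35 and 1.81 RPKM with an interval that included 1.

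Matrix genes were modestly higher. Of 30 fibroblast and fibrillar matrix genes compared, 24 were higher and 6 lower, with a median of 0.23. Efemp1, which encodes the matrix glycoprotein fibulin-3, went from 2.22 to 5.02 RPKM, 2.26-fold (1.46 to 3.62), and Mmp14, a membrane-bound collagenase, from 2.48 to 4.23 RPKM. Col1a1, the main chain of type I collagen, went from 34.7 to 45.5 RPKM, 1.31-fold (1.21 to 1.42), and Fn1 (fibronectin) from 45.9 to 56.2 RPKM. Of 23 basement membrane genes 21 were higher and 2 lower, with a median of 0.21. None of these passed 1.5-fold on the log2(RPKM + 1) scale, although Lamb3 did as a plain ratio, at 1.84-fold from 1.04 to 1.92 RPKM, with an interval above 1. Of the 23, 16 had intervals wholly above 1, such as Lamc1 (60.9 to 75.8 RPKM), Hspg2 (perlecan, 10.9 to 15.2 RPKM) and Col4a1 (68.6 to 76.4 RPKM). In the Hey1 line the medians of both lists were -0.04 and 0.0035.

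These lists hold long genes, and differences in this pair of libraries moved with gene length. The median difference was -0.32 for the 41 genes under 200 bases and 0.10 for the 540 genes of 8000 bases or more, and the correlation of length with difference over genes was 0.221 (Spearman's rank correlation, a description over genes that share the same libraries). The basement membrane genes have a median length of 6046 bases against 2789 bases over all compared genes. To remove this trend, genes were cut into 20 bins of length and the median of each bin was subtracted. The medians then became 0.15 for the basement membrane list, 0.20 for the fibroblast list, 0.20 for the naive list, 0.20 for the interferon list and -0.38 for the streak list. Counts past 1.5-fold changed by 1 or 2 genes on several lists. On the streak list 4 were then lower without Lhx1, whose difference became -0.50, and on the epiblast list 2 without Fgf15, whose difference went from -0.60 to -0.56. On the naive list 2 were higher with Klf5 at 0.60, on the interferon list 6, and on the sarcomere list 1, Acta1 at 0.62. On the glycolysis list none was left, with Ldha going from -0.60 to -0.55. The cause of the length trend was not tested.

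**Figure D3:**
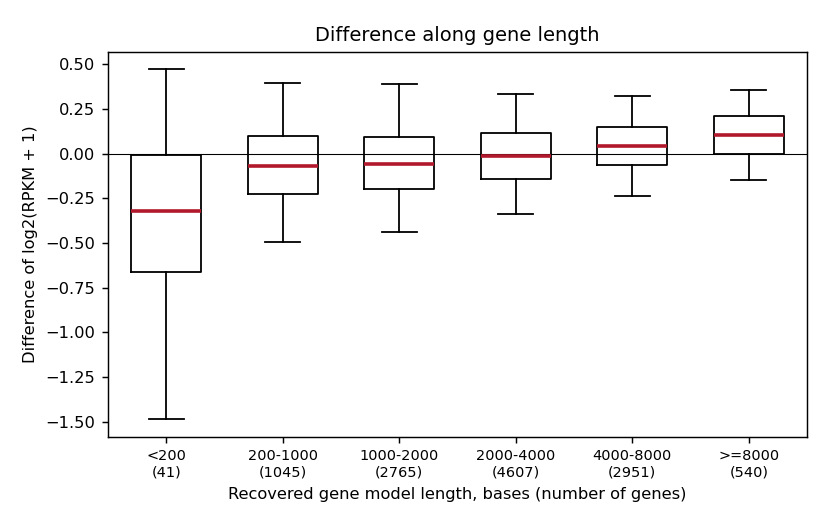
Difference of log2(RPKM + 1), induced minus uninduced, for compared genes grouped by gene model length in bases, with the number of genes under each group. Boxes span the quartiles, red lines are medians and whiskers reach the 5th and 95th percentiles; the median rises from -0.32 in the shortest to 0.10 in the longest group.

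Heart muscle genes differed little. Of 25 sarcomere genes 17 were higher and 8 lower, none by 1.5-fold on the log2(RPKM + 1) scale, with a median of 0.05. The myosin heavy chain genes Myh6 and Myh7 went from 146 to 167 RPKM, 1.15-fold (1.11 to 1.19), and from 90.1 to 111 RPKM, 1.24-fold (1.18 to 1.29). Actc1, cardiac alpha-actin, was at 225 and 217 RPKM and the ventricular light chain Myl2 at 190 and 182 RPKM, with intervals that included 1. Acta1, the skeletal alpha-actin that fetal heart also makes, had the largest difference of the list, from 14.2 to 21.6 RPKM, 1.52-fold (1.24 to 1.88). Of 19 cardiac transcription factor genes 12 were higher and 7 lower, with a median of 0.07. Nkx2-5 was at 2.97 and 3.60 RPKM, Gata4 at 9.12 and 9.69 RPKM and Tbx20 at 5.26 and 6.37 RPKM, and of these Tbx20 alone had an interval above 1 (1.03 to 1.43). Of 17 smooth muscle genes 13 were higher and 4 lower, with a median of 0.12. Among them Tagln (transgelin) went from 82.5 to 111 RPKM, Cald1 (caldesmon) from 37.4 to 52.5 RPKM, and Lmod1 from 0.706 to 1.66 RPKM.

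**Figure D4:**
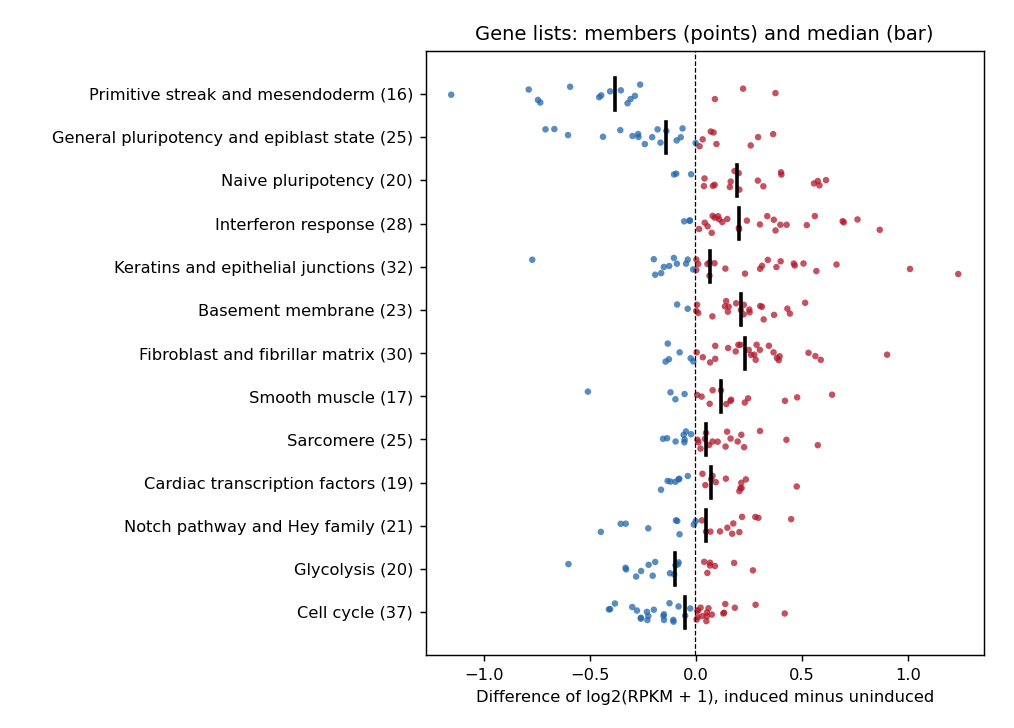
Difference of log2(RPKM + 1), induced minus uninduced, for the compared members of 13 gene lists (number compared in parentheses); each point is a gene, the black bar is the list's median and the dashed line is the median over all compared genes. The streak list lies lowest with a median of -0.38, and the fibroblast, basement membrane, interferon and naive lists lie at 0.23, 0.21, 0.20 and 0.19.

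Genes of the Notch pathway itself split. Of 21 compared genes 12 were higher and 9 lower, none by 1.5-fold on the log2(RPKM + 1) scale, with 3 intervals wholly above 1 and 1 wholly below. Their median was 0.05, which became 0.16 among members whose mean reached 5 RPKM. Among the receptors Notch3 went from 7.79 to 11 RPKM, 1.41-fold (1.25 to 1.60), and Notch1 from 2.13 to 2.83 RPKM, 1.33-fold (1.07 to 1.67). The ligand genes Dll3 and Jag1 were at 2.25 and 2.15 RPKM uninduced and at 1.38 and 1.97 RPKM induced, with intervals that included 1. Rbpj, the DNA-binding partner of the Notch intracellular domain, was at 12.3 and 14.4 RPKM, and the sheddase Adam17 at 8.06 and 6.2 RPKM. Corepressors and chromatin partners of Hey proteins split evenly, 8 higher and 8 lower, with Ncor1 at 10.3 and 12 RPKM and Sirt1 at 8.06 and 6.45 RPKM.

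Among other signalling genes, ligands and targets went different ways. On the TGF-beta and BMP list 18 of 28 were higher and 10 lower, with a median of 0.10 that turned to -0.03 among members whose mean reached 5 RPKM. The ligand gene Tgfb2 went from 5.89 to 9.32 RPKM, 1.58-fold (1.32 to 1.91), the feedback inhibitor Smad7 from 2.39 to 3.78 RPKM and the BMP antagonist Nog from 2.44 to 4.01 RPKM. The BMP target genes Id2, Id3 and Id1 were at 8.89, 14.2 and 8.78 RPKM uninduced and at 5.91, 10.3 and 6.88 RPKM induced, with the interval of Id1 including 1. On the Wnt list 13 of 24 were higher and 11 lower, with a median of 0.01 that became 0.15 among members whose mean reached 5 RPKM. Wnt9a went from 0.943 to 2.12 RPKM, while Lef1, a nuclear effector, went from 2.17 to 1.31 RPKM and the secreted inhibitor Frzb from 1.67 to 0.792 RPKM. On the FGF-ERK list 8 of 17 were higher and 9 lower, and Dusp6, a feedback phosphatase of ERK, was at 18.8 and 15.6 RPKM. Dusp9, another MAP kinase phosphatase, went from 15.1 to 25 RPKM, 1.66-fold (1.43 to 1.93).

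More glycolysis genes were lower than higher, by small amounts. Of 20 glycolysis genes 13 were lower and 7 higher, with a median of -0.10, and 9 had intervals wholly below 1. Ldha, which encodes the muscle subunit of lactate dehydrogenase, went from 215 to 141 RPKM, 1.52-fold lower (1.44 to 1.61), and Pgk1 from 144 to 114 RPKM. Slc2a1, the main glucose transporter gene, stood at 124 and 128 RPKM. In the Hey1 line Ldha went from 140 to 106 RPKM, and 16 of the 20 glycolysis genes were lower, against 62.0% of all compared genes with both values there. Of 37 cell cycle genes 20 were lower and 17 higher, a split close to that of all compared genes, with a median of -0.05 that became -0.02 with the length trend removed. Of their intervals, 9 lay wholly below 1 and 3 wholly above. In the Hey1 line 31 of the 37 were lower and 6 higher, with a median of -0.23, against -0.06 over all compared genes listed there. E2f1 went from 7.0 to 5.02 RPKM and Pcna from 50.5 to 41.5 RPKM, while Mki67 went from 14.1 to 17.4 RPKM.

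The genes farthest from a ratio of 1, once counting error is allowed for, differed in how they stood in the Hey1 line. The 15 genes with the lowest upper bounds were Snord22, Mixl1, Magel2, D130009I18Rik, Lars2, Gphn, Eomes, Kcnip1, 4631422O05Rik (Filip1l), Agtrl1 (Aplnr), Vwa3a, 2610528E23Rik (Cmss1), Wdr92, Il31ra and Ldha. Of these, 12 had both Hey1-line values, and all 12 were lower there too, with a median of -0.38. Filip1l and Cmss1, which overlap each other in RefSeq, both count among the 12. Of the 15 with the highest lower bounds, 9 had both Hey1-line values, 5 higher and 4 lower, with a median of 0.05. The background is uneven, because most genes with both Hey1-line values were lower in the induced Hey1 library, as given above. Of all 130 lower genes 76 had both Hey1-line values and 52 of these were lower there, against 62.0% of all compared genes with both values. Of the 93 higher genes 58 had both values and 18 were higher there, against 38.0% of all compared genes with both values. On the list of RNA type and quality (Neat1, Rpl3 and Rplp1 among them), 7 of 8 compared genes were lower and 1 higher. The median of that list was -0.12, or -0.05 with the length trend removed. In the Hey1 line 5 of its genes were lower and 3 higher, with a median of -0.17. The part of RNA composition in the shared differences was not tested.

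Lars2, the mitochondrial leucyl-tRNA synthetase gene, had 1489 and 1362 reads, and its level went from 66.7 to 33.8 RPKM, 1.97-fold lower (1.83 to 2.12). In the Hey1 line Lars2 went from 36.8 to 26.7 RPKM. Of 37 aminoacyl-tRNA synthetase genes, Lars2 included, 22 were lower and 15 higher, with a median of -0.06, and 6 had intervals wholly below 1 against 1 wholly above. The mitochondrial synthetase genes Ears2 and Pars2 were lower too, from 7.35 to 4.86 RPKM with a ratio of 0.661 (0.484 to 0.905) and from 1.36 to 0.846 RPKM with a ratio of 0.622 (0.399 to 0.971). Fars2, another of them, was at 3.35 and 4.44 RPKM with an interval that included 1. Gphn, which encodes the receptor-clustering protein gephyrin, went from 29.9 to 16.6 RPKM on 584 reads in each library, and from 17.3 to 13.8 RPKM in the Hey1 line. The rows 2610528E23Rik (Cmss1) and 4631422O05Rik (Filip1l) went from 124.6 to 75.7 RPKM and from 35.8 to 20.9 RPKM. In RefSeq those 2 genes overlap each other, and the sources used here say nothing of strand, so their reads cannot be told apart. The long noncoding RNA D130009I18Rik went from 19 to 8.08 RPKM, 2.35-fold lower (1.96 to 2.81), and from 10.3 to 6.57 RPKM in the Hey1 line. Magel2, an imprinted gene blank in the Hey1 line, went from 5.15 to 2.01 RPKM, 2.57-fold lower (1.97 to 3.36).

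On the higher side, transcription regulators and a GTPase regulator stood beside the genes already described. Arid5b, a DNA-binding chromatin regulator, went from 2.55 to 5.17 RPKM, 2.02-fold (1.54 to 2.70). The ETS factor gene Ets2 went from 5.28 to 9.38 RPKM, 1.78-fold (1.43 to 2.22), and was at 7.41 and 7.76 RPKM in the Hey1 line. Arhgap29, a GTPase-activating protein, went from 4.85 to 8.35 RPKM, 1.72-fold (1.42 to 2.09), but from 4.35 to 3.12 RPKM in the Hey1 line. Pmch, a neuropeptide precursor gene, was at 1.86 and 5.54 RPKM on 8 and 43 reads. In RefSeq Pmch overlaps Parpbp, so reads of the pair cannot be told apart. Rtp4, Tagln, E2f1, Adam17, Ncor1, Kcnip1 and Gtl2, named elsewhere in the text, each overlap another protein-coding RefSeq gene too, and the same limit applies to them.

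**Figure D5:**
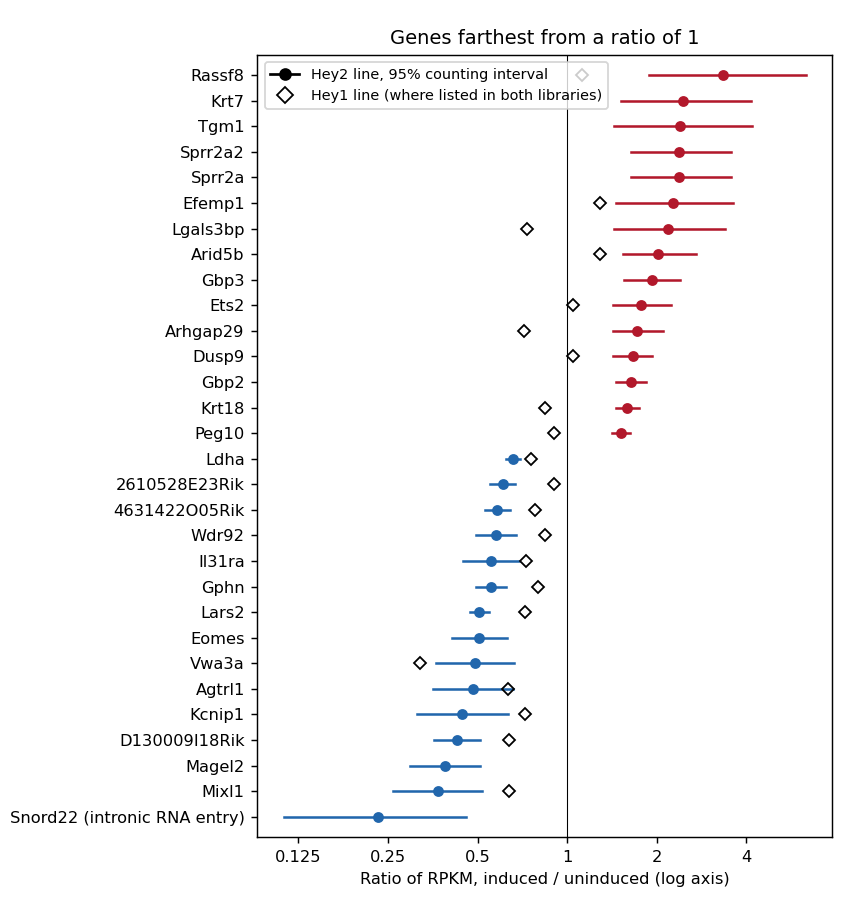
Ratio of RPKM, induced over uninduced (log axis), of the 15 genes with the highest lower bounds (red) and the 15 with the lowest upper bounds (blue) in the Hey2 line, with exact 95% counting intervals as lines. Open diamonds give the ratio in the Hey1 line where both values exist; all 12 diamonds beside blue genes lie below 1, while those beside red genes lie on both sides.

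Entries of very short genes made up much of the 2-fold lower group and are uncertain. Of the 11 genes lower by at least 2-fold, Snord22, Snord49b, Snord47, Snord52, Mir363, Mir3076 and Entrez100628584 are entries under 200 bases. Snord22, a small nucleolar RNA within the host transcript Snhg1, went from 42.8 to 9.94 RPKM on 31 and 13 reads. Snord49b had 10 and 6 reads and Mir363 had 8 and 5 reads, and the intervals of both included 1. So did the intervals of Snord47, Snord52 and Mir3076. Of 13 snoRNA entries 11 were lower with a median of -0.37, and of 23 miRNA entries 17 were lower with a median of -0.23. Snord22, Snord49b, Snord47, Snord52 and Mir3076 each overlap a longer RefSeq gene, and the sources used here do not give the steps that set the recovery of short RNA. The other 4 genes of the 2-fold group were Mixl1, D130009I18Rik, Rpp21 and Magel2, of which Rpp21, a subunit gene of ribonuclease P, was at 8.70 and 3.47 RPKM.

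Genes blank in both Hey1-line libraries numbered 797, or 6.67% of those compared, yet they gave 27 of the 93 higher genes (29.0%) and 48 of the 130 lower genes (36.9%). The lowest listed level was 10 reads in the Hey1-line libraries against 5 in the Hey2-line ones, so a blank there does not mean absence. The median depth of these 797 genes was 57 reads over both Hey2-line libraries against 273 over all compared genes. Beside the genes above they included Calca (4.20 to 1.88 RPKM), the transcription factor gene Myb (3.27 to 1.63 RPKM) and Havcr2 (3.96 to 2.16 RPKM). A further 1042 genes were listed in the induced library alone and 124 in the uninduced library alone, at a median of 6 and 5 reads, beside the deeper sequencing of the induced library. A gene blank in 1 library has a bound on its fold, set by the lowest level listed there, and this bound reached 2-fold for 14 of the 1042 genes and for 56 of the 124. The lowest level was 5 reads in both, which is a lower RPKM in the deeper induced library. For a gene as long as Hey2 it was 0.190 RPKM induced and 0.343 RPKM uninduced. Fewer reads therefore suffice for a 2-fold bound on the uninduced side, and the shares cannot be compared. In the uninduced library alone, Col24a1, a collagen chain gene, had the highest bound, at 0.268 RPKM on 11 reads and at least 3.97-fold lower after induction. After Hey2, the genes listed in the induced library alone with the highest bounds were Rhox6, a reproductive homeobox gene, at 3.23 RPKM and at least 3.21-fold higher, and Ikbke, a kinase of innate immune signalling, at 0.752 RPKM and at least 2.77-fold higher.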

How the data were processed

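RNA from 4 libraries (1 for each line and treatment) was compared within the Hey2 line. The authors deposited RPKM per gene, per the file headers. Bowtie 1.0, DESeq, MACS 1.4.1 and the build mm9 are named, per the submitters' processing notes, with no role. For the counter, annotation and strand handling, nothing is given in the sources used here. The 8 chromatin samples were not analysed here, and the deposited fold score was not used.

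From the RPKM, differences of log2(RPKM + 1) were computed. Reads and gene lengths were recovered from the steps between values, taking the smallest read numbers that fit at or above the lowest level listed. That level, inferred from the values, was 5 reads in the Hey2 line and 10 in the Hey1 line. If it is right, intervals can be too wide but not too narrow from this step. Without it, 231 genes of the uninduced and 379 of the induced Hey2-line library fitted fewer reads than 5. The recovery was tested on simulated data. The depths behind the scaling came out as 5750000 and 10375000 reads. Intervals are exact conditional binomial intervals at 95%.

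The members and the 36 gene lists were chosen with earlier results of these data known. Named genes are Hey2 and Hey1, the 15 with the highest lower and the 15 with the lowest upper bound of the ratio, up to 10 each way blank in the Hey1 line, all past 2-fold, up to 4 of each list with the largest differences plus abundant members, and Rassf8, Mixl1, Lars2, Krt18, Dnmt3b and Pou5f1. Others are marked as chosen after their values were seen, or come from the lists to show a level. RefSeq (GRCm38.p6) matched 11921 of the compared genes and gave names, overlaps and promoters, and 355 had no symbol in the table. Software was Python 3.11.15, NumPy 2.4.6, pandas 2.3.3, SciPy 1.17.1 and Matplotlib 3.10.9. Alternatives were the pseudocount, filters on level and reads, scaling, blank cells, and, chosen after seeing the data, the length trend and gene type. A few genes are not reported here.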

Additional observations from a re-analysis of the deposited data

Results flagged for a closer look

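For 8 named genes the induced library lay above the uninduced one in one line and below it in the other, each with a counting interval off 1. With 1 library a side the difference between the lines was not tested. All values are differences of log2(RPKM + 1), induced minus uninduced. Krt19, a simple-epithelium keratin, differed by 0.40 in the Hey2 line and by -0.91 in the Hey1 line. The actin gene Acta1 differed by 0.57 and -0.52, Arhgap29 by 0.68 and -0.38, Tagln by 0.42 and -0.23, Tbx20 by 0.24 and -0.23, and Trp53inp1 by 0.29 and -0.26, in that order of lines. The other two went the opposite way, with Egr1, an immediate early gene, at -0.29 in the Hey2 line and 1.28 in the Hey1 line, and Id2 at -0.52 and 0.36. Hey2 itself lies outside the genes compared, because it was blank in the uninduced library, and it stood at 6.59 RPKM in the induced one.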

How the results depend on the processing

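Against 93 higher and 130 lower genes at 1.5-fold and 3 and 11 at 2-fold, a pseudocount of 0.1 RPKM gave 282 and 344 at 1.5-fold and 29 and 40 at 2-fold. A mean of at least 5 RPKM gave 26 and 54 at 1.5-fold and 0 higher at 2-fold. Values in all 4 libraries gave 58 and 76, then 1 and 4. At least 20 reads in each library gave 47 and 84, then 1 and 3. Blank cells read as 0 gave 39 higher and 17 lower at 2-fold, and protein-coding genes alone gave 3 lower at 2-fold. These filters test fewer or more genes by construction. No filter on level, median ratio scaling, upper quartile scaling and the removed length trend left all 4 counts within 1.5 times. Medians of the lists moved by more than the spread set for them in 8 of 358 cases. At a mean of at least 5 RPKM these were Notch (0.05 to 0.16), trophoblast (0.28 to 0.44), DNA methylation (0.10 to -0.01), Wnt (0.01 to 0.15) and TGF-beta and BMP (0.10 to -0.03). The streak list moved to -0.51 with the pseudocount of 0.1 RPKM and to -0.13 with values in all 4 libraries, where the keratin list moved to 0.33. No named gene turned direction under any setting run here. With the length trend removed, the log2(RPKM + 1) difference of 6 fell outside the counting interval of their plain ratio (Sprr2a, Sprr2a2, Tcfcp2l1, Lrp2, Hspg2 and Gtl2). That difference understates the change of genes at low levels, so leaving the interval does not measure the length trend alone. With the trend removed, 87 of the 93 higher and 90 of the 130 lower genes stayed past 1.5-fold. Leaving out a library was not possible with 1 a side, and no paired analysis was possible because no group has a second library. Depth limits the calls, since genes past 1.5-fold rest on a median of 91 (higher) and 73.5 (lower) reads over both libraries, against 273 over all compared genes.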

Other observations

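Some ligand and receptor genes of peptide hormones were lower, in families chosen after their values were seen. Of 3 apelin system genes all 3 were lower, 2 of them by 1.5-fold on the log2(RPKM + 1) scale. Agtrl1 (Aplnr), the apelin receptor gene, went from 4.54 to 2.19 RPKM, 2.07-fold lower (1.52 to 2.83), and its ligand gene Apln from 2.15 to 1.07 RPKM, 2.01-fold lower, on 39 and 35 reads. Apela, the other ligand gene of that receptor, was at 22.8 and 21.6 RPKM with an interval that included 1. In the calcitonin gene-related peptide system 5 genes were compared, 4 lower and 1 higher. The precursor gene Calca went from 4.20 to 1.88 RPKM, and the receptor activity-modifying genes Ramp2 and Ramp3 from 7.78 to 3.87 RPKM and from 6.55 to 3.63 RPKM. The receptor gene Calcr was at 1.49 and 0.923 RPKM with an interval that included 1, and the component gene Crcp, the higher member, at 8.04 and 8.13 RPKM. Calcrl, below the level compared, was at 0.294 and 0.407 RPKM on 8 and 20 reads. Among the activin genes Inhba was at 1.25 and 2.46 RPKM, on 11 and 39 reads, and Inha at 1.66 and 0.725 RPKM, on 14 and 11 reads, both with intervals that included 1, while Fst, whose product binds activin, was lower as given above.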
